A study of Homo sapiens with 5 samples.

Results

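Footprints of translating ribosomes were compared between HCT116 cells with and without an amino-acid change in eIF6, on the genes of the mitochondrial protein import machinery. The genes were chosen by symbol alone: every row starting with TIMM, TOMM, PMPC or GRPEL, the metaxins MTX1 to MTX3, and PAM16, SAMM50, CHCHD4, GFER and OXA1L. The rule found 38 of the 17297 genes in the table, and 37 passed the filter on low counts. TOMM20L, a TOMM20 relative, had 1 count in all 5 libraries together and was not tested. The symbol rule also takes in TIMMDC1, which is named for its likeness to the TIMM proteins but assembles respiratory complex I.

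HCT116 is a human colorectal carcinoma cell line. The wild-type (WT) group was 2 libraries of unedited cells, and the mutant (MUT) group was 3 libraries of cells homozygous for the eIF6 change N106S, introduced with CRISPR/Cas9. Both groups were grown in the same serum-containing medium with no other treatment named. The labels speak of mutant clones without giving the clone or culture behind each library, so p-values measure only the spread between these libraries. An effect of the mutation cannot be told apart from other differences between edited and unedited cells. eIF6 binds the large ribosomal subunit and keeps it from joining the small one. A gene's footprint count reflects the ribosomes on its mRNAs, and fewer mRNAs and fewer ribosomes per mRNA cannot be told apart here.

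Nearly all mitochondrial proteins are made in the cytosol and imported. The TOM complex recognizes them at the outer membrane and passes them through, after which they part ways. Beta-barrel proteins go to the SAM complex of the outer membrane, and cysteine-rich proteins are trapped between the membranes by the MIA pathway. The small TIM chaperones lead carrier proteins to the TIM22 complex. Proteins with a cleavable presequence cross the inner membrane through the TIM23 complex, pulled by a motor built around the chaperone HSPA9, and lose the presequence to a peptidase. Fast-growing tumour cells depend on this traffic for every nuclear-encoded respiratory subunit.

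Library totals ran from 2095217 to 3821176 counts, the smallest being WT replicate 1, and no 2 libraries were as alike as counting error alone would make them. Of 10 markers of colon epithelial lines 9 were in the table. KRT8, KRT18 and KRT19 had mean levels of 337, 303 and 466 CPM (counts scaled to a common library size), while VIL1 and CDX1 were near 0 (0.0654 and 0.105 CPM). Some of these markers moved between the groups: KRT8 (275 to 299 CPM in WT, 313 to 437 in MUT) and KRT19 (398 to 426, 445 to 562) rose. KRT18 (260 to 317 CPM in WT, 287 to 337 in MUT) and CDX2 (23.5 to 27.5, 28.9 to 32.9) did not pass the test used below. EPCAM (72.9 to 83 CPM in WT, 48.8 to 65 in MUT), CDH1 (20.9 to 21.5, 8.91 to 12.6) and ELF3 (61.8 to 74.4, 29.8 to 54.8) fell. The summed levels of 6 fibroblast, 5 blood and 3 endothelial markers stayed between 1.32 and 9.22 CPM in all libraries. The 3 neuronal markers summed to 55.9 to 62.1 CPM in WT and 28.2 to 39.8 CPM in MUT, nearly all of it SYT1. The part of these marker changes in the results was not tested.

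Import genes moved in both directions, and the median of the set hardly moved. Footprints fell on the presequence receptor TOMM20 and on TOMM34, MTX2, TIMM17B and TIMMDC1. They rose on TOMM40L, MTX1, the small TIM chaperone TIMM10, the sulfhydryl oxidase GFER and the motor anchor TIMM44. By edgeR's quasi-likelihood test, with an adjusted p under 0.05 as the threshold, footprints rose on 5 of the 37 genes and fell on 5, while 27 missed it. Over all 11991 genes tested, 22.9% were called (10.0% higher and 12.9% lower), and the import genes' 27.0% is close to that. With DESeq2 in place of edgeR, 3 import genes stayed called (TOMM20, TIMM17B and MTX1), beside 13% of all tested genes. The changes were of modest size. Log2 fold changes (MUT over WT) of the import genes ran from -0.67 for TIMM17B to 0.65 for TOMM40L, with a median of -0.06 beside 0.0024 over all tested genes.

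The 38 genes held 0.448% and 0.436% of all counts in WT replicates 1 and 2. In MUT replicates 1, 2 and 3 they held 0.434%, 0.430% and 0.444%. On these unscaled totals the groups overlapped, and the mean was 0.442% ± 0.00826 (SD, n = 2) for WT, beside 0.436% ± 0.00682 (SD, n = 3) for MUT. The TMM factors used for all CPM here were 0.9588 and 0.9805 in WT and 1.026, 1.014 and 1.023 in MUT. TMM-scaled levels therefore stand lower in MUT, relative to WT, than these shares do. Exact 95% binomial intervals, which cover counting error only, ran from 0.439% to 0.457% in WT replicate 1. All MUT libraries lay above all WT libraries for 10 import genes and below them for 12, where over all tested genes the shares were 25.4% and 25.3%. The number of calls depended on single libraries: 1 gene was higher without WT replicate 1 or WT replicate 2, and 3 without MUT replicate 2. Genes that were lower numbered 3 without WT replicate 1, and 2 without WT replicate 2 or MUT replicate 1. Over all tested genes the share called fell as well, from 22.9% to 13.6% without MUT replicate 1 and to 19.7% without MUT replicate 2. It also fell without either WT library. Every called import gene kept its direction in all 15 alternative fits.

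**Figure D1:**
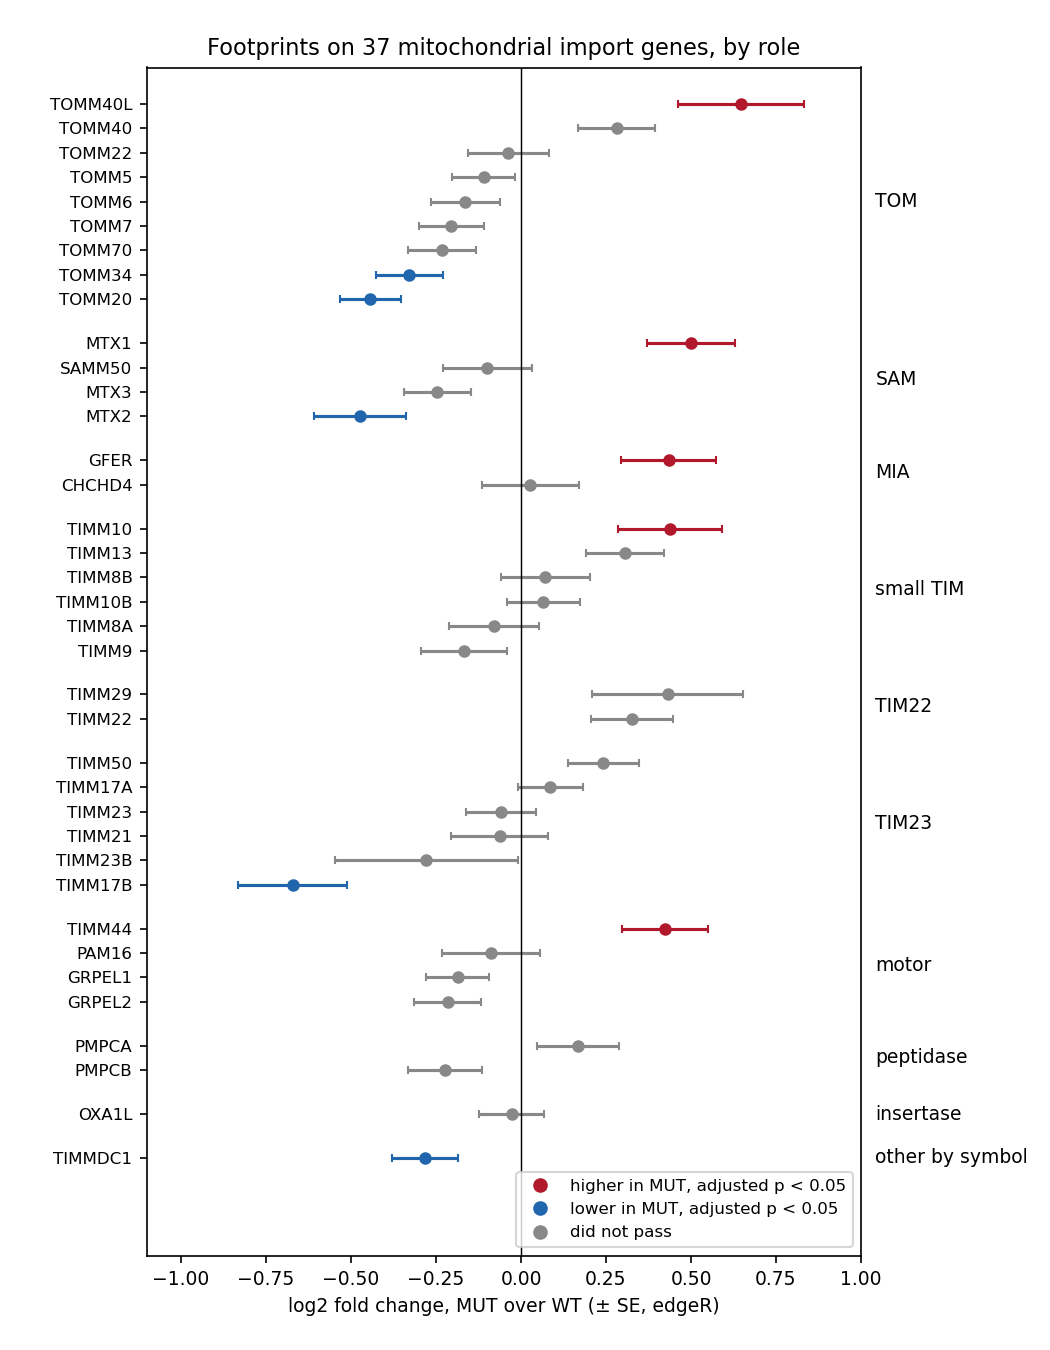
Log2 fold change of footprint counts, MUT over WT, for the 37 tested import genes, grouped by role. Points are edgeR estimates and bars ± 1 SE from 2 WT and 3 MUT libraries. Red marks the 5 genes that were higher and blue the 5 that were lower at an adjusted p under 0.05, and most role groups hold genes on both sides of 0.

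Some of these genes' promoters held motifs that the symbol rule did not use, and 19 of 35 held neither of the main ones. Promoters of 300 bases (250 before the annotated start and 50 after it) were taken from RefSeq's table for GRCh38.p14, where 35 of the 38 genes matched. The motif of NRF1, a regulator of nuclear genes for mitochondria, was searched on both strands as GCGCA, any base, then GCGC, and occurred in 9 of these 35 promoters (25.7%). It occurred in 8.58% of all 15843 protein-coding promoters and in 12.1% of those of tested genes. The core bound by GABPA and other ETS factors, searched as CCGGAAGT on both strands, occurred in 10 of the 35 (28.6%), in 6.19% of all and in 9.29% of those of tested genes. TOMM20, GRPEL2 and TIMM29 held both motifs, at places that do not overlap. Of 3 further motifs searched, that of YY1 occurred in 14.3% of the import promoters (5.00% of those of tested genes) and the E-box CACGTG in 11.4% (10.3%). The cyclic-AMP response element TGACGTCA was not in these windows, and 3.41% of promoters of tested genes held it. A match is a description of the letters, not of binding.

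Taking the NRF1 and ETS motifs together, calls in both directions occurred with and without them. Of the 16 import genes with at least 1 of the NRF1 and ETS motifs, 1 was higher and 4 were lower in MUT. Of the 19 with neither, 4 were higher and 1 lower. Over all tested genes, 10.2% were higher and 14.3% lower with at least 1 of the motifs, and 10.0% and 12.4% with neither. Over all tested genes the median log2 fold change was -0.019 for those with the NRF1 motif and -0.011 for those with the ETS core. The import genes with them had medians of -0.089 and -0.224. For the YY1 motif the medians were 0.052 over all tested genes and 0.242 for the import genes. The 120 bases before the annotated start are shown for the called genes whose motif lies whole within them, with motif letters in capitals, and for MTX1, which rose and held neither. TOMM20 (minus strand, chr1:235128838-235128957) has an NRF1 motif at bases -101 to -92 and an ETS core at -22 to -15, counting the start as 0. TOMM34 (minus strand, chr20:44960398-44960517) has an NRF1 motif at -14 to -5. TIMMDC1 (plus strand, chr3:119498427-119498546) has an ETS core at -76 to -69, and TIMM10 (minus strand, chr11:57530755-57530874) at -13 to -6. MTX1 is on the plus strand (chr1:155208575-155208694). Each is written 5′ to 3′ on the gene's strand.
TOMM20: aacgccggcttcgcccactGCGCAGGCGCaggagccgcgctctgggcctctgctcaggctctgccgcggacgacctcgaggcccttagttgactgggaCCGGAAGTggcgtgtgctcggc
TOMM34: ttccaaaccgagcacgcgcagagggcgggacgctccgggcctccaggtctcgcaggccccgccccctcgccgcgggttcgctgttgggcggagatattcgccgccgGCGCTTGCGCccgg
TIMMDC1: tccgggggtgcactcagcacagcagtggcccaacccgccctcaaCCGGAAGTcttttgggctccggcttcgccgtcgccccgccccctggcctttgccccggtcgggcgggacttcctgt
TIMM10: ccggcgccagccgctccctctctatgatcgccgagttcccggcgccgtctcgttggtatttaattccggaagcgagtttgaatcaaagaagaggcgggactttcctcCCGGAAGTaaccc
MTX1: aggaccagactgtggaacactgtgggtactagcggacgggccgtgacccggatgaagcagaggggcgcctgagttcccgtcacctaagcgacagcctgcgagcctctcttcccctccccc
The MTX2 promoter also holds the ETS core, at bases -6 to 1, across the start. TIMMDC1 holds another ETS core, ACTTCCGG at -123 to -116, which begins before the bases shown and is not in capitals.

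At the outer membrane, the TOM group had 2 genes lower, 1 higher and 6 that did not pass. TOMM20, the receptor that binds presequences (chromosome 1, 235109341 to 235128837 on GRCh38.p14), had 467 and 474 CPM in WT and 348, 341 and 350 CPM in MUT. The libraries of each group lay close together and the groups did not overlap. TOMM20 fell 1.36-fold (log2 fold change -0.44, SE 0.0905, adjusted p 0.00114), and it was past the threshold in all 15 alternative fits. TOMM20 has 4 annotated pseudogene copies, and the treatment of reads shared with them is unknown here.

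TOMM34, a cytosolic protein that binds precursors and chaperones before import, had 130 and 137 CPM in WT and 102, 108 and 109 CPM in MUT. All MUT libraries were below both WT libraries, 1.26-fold on average (log2 -0.33, SE 0.0991, adjusted p 0.0186). The call ended without WT replicate 2 (adjusted p 0.173) or MUT replicate 1 (0.0828), with DESeq2 (0.0739) and with library size only (0.0638). TOMM40L, a relative of the channel protein TOMM40, rose 1.57-fold, from 22.5 and 18.3 CPM in WT to 31.5, 33.2 and 29.8 CPM in MUT. Its 5 libraries fell into separate groups (log2 0.65, SE 0.186, adjusted p 0.0139), but the gene was thinly covered, with 45 counts in WT replicate 1. Without WT replicate 2 the adjusted p was 0.196, and with DESeq2 0.0684.

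TOMM40, the channel itself, had 73.4 and 80.1 CPM in WT and 97.3, 87.4 and 96.7 CPM in MUT. The groups did not overlap, yet the test was not passed (log2 0.28, adjusted p 0.0756); it was passed with library size only (0.0284) or upper-quartile scaling (0.0388). TOMM22, the central receptor that holds the complex together, had 317 and 215 CPM in the WT libraries and 251, 239 and 279 CPM in MUT. The WT libraries lay on either side of the MUT ones, and the log2 fold change of -0.04 (SE 0.119) became 0.24 without WT replicate 1. TOMM70, the receptor for carrier proteins, stood at -0.23 (adjusted p 0.0941) and was called without MUT replicate 2 (0.0377). The small subunits TOMM5, TOMM6 and TOMM7, which stabilize the channel, stood at -0.11, -0.16 and -0.20, with adjusted p of 0.42, 0.258 and 0.125. The summed TOM genes, TOMM34 included, had 1950 and 1823 CPM in WT and 1643, 1625 and 1675 CPM in MUT. The means of this sum were 1887 CPM in WT and 1648 CPM in MUT, and those of TOMM20 alone 471 and 346 CPM. Such sums weigh abundant genes most, and other groups differed. Mean sums went up in the TIM22, MIA and small TIM groups (76.0 to 97.5, 85.5 to 101 and 394 to 420 CPM). They went down in the motor and SAM groups (563 to 518 and 382 to 350 CPM) and hardly moved in TIM23 (591 and 593 CPM).

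The SAM complex split between its metaxins. MTX1 (chromosome 1, 155208695 to 155213839), an outer-membrane partner of SAMM50, had 45.9 and 51.3 CPM in WT and 69.7, 72.9 and 65.4 CPM in MUT. Its partner MTX2 (chromosome 2, 176269442 to 176338025) went the other way, with 58.4 and 72.3 CPM in WT and 43.9, 52.7 and 45.9 CPM in MUT. In neither gene did the groups overlap. MTX1 rose 1.41-fold (log2 0.50, SE 0.130, adjusted p 0.00707), and MTX2 fell 1.39-fold (log2 -0.47, SE 0.136, adjusted p 0.0142). MTX1 lost its call without WT replicate 1 (0.0731), and MTX2 without WT replicate 2 (log2 -0.29, adjusted p 0.324) or MUT replicate 1 (0.0754) and with DESeq2 (0.0681). MTX3 stood at -0.25 (adjusted p 0.0723) and was called without MUT replicate 3 (0.0298). The barrel protein SAMM50 had 71.9 and 76.5 CPM in WT and 77, 74.5 and 57.7 CPM in MUT, with overlapping groups (log2 -0.10, adjusted p 0.621).

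Between the membranes, 1 gene of the MIA pathway rose. GFER, the sulfhydryl oxidase that reoxidizes CHCHD4, had 37.5 and 41.5 CPM in WT and 55, 51.6 and 54.7 CPM in MUT. It rose 1.35-fold with no overlap of the groups (log2 0.43, SE 0.140, adjusted p 0.0267). Leaving out WT replicate 1, WT replicate 2 or MUT replicate 1 gave adjusted p of 0.146, 0.0835 and 0.0824, and DESeq2 gave 0.111. CHCHD4 itself, the oxidoreductase that folds incoming cysteine-rich proteins, had 41 and 51 CPM in WT and 47.4, 44.8 and 50.3 CPM in MUT. These ranges overlap, and the log2 fold change was 0.03 (SE 0.143).

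Of the 6 small TIM chaperones, which are themselves substrates of the MIA pathway, 1 rose and 5 did not pass. TIMM10 had 33.5 and 36.9 CPM in WT and 41.4, 49.8 and 52.3 CPM in MUT. It rose 1.36-fold (log2 0.44, SE 0.154, adjusted p 0.0411). This call was among the least steady: leaving out WT replicate 1 (0.193), WT replicate 2 (0.126), MUT replicate 2 (0.082) or MUT replicate 3 (0.111) ended it, as did DESeq2 (0.147) and limma-voom (0.0602). TIMM9, which assembles with TIMM10 into a ring, stood at -0.17 with 63.4 and 67.4 CPM in WT and 59.2, 54.2 and 61.8 CPM in MUT. TIMM13 had 69.4 and 70 CPM in WT and 83, 86.6 and 88.5 CPM in MUT, just short of the threshold (log2 0.30, adjusted p 0.0558), and its ring partner TIMM8A stood at -0.08. TIMM13 was called with upper-quartile scaling (0.0284), library size only (0.0206) and the strict filter (0.0407). TIMM8B and TIMM10B stood at 0.07 each.

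Neither gene of the TIM22 group, the carrier insertase, was called, although both had all MUT libraries above all WT libraries. TIMM22, its channel, had 60.9 and 59.2 CPM in WT and 74.4, 73.7 and 77.2 CPM in MUT. Replicates lay close together and the test was narrowly missed (log2 0.33, SE 0.12, adjusted p 0.0514). It was passed with upper-quartile scaling (0.0271), library size only (0.0198) and the strict filter (0.0383). TIMM29, a subunit of the same complex, had 12 and 19.9 CPM in WT and 22.9, 21.6 and 22.6 CPM in MUT (log2 0.43, adjusted p 0.163). It was thinly covered, with 24 counts in WT replicate 1, and leaving out WT replicate 1 took its log2 fold change to 0.16, leaving out WT replicate 2 to 0.90.

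In the TIM23 complex, the presequence translocase, 1 of 6 genes fell and 5 did not pass. TIMM17B, which with its relative TIMM17A forms alternative versions of the channel, had 47.4 and 39.6 CPM in WT and 29.3, 25.8 and 26.2 CPM in MUT. This was the largest fold among the import genes that fell, 1.59-fold (log2 -0.67, SE 0.161, adjusted p 0.00415), and only leaving out WT replicate 1 ended the call (0.0594). TIMM17A had 194 and 180 CPM in WT and 200, 188 and 206 CPM in MUT, with overlapping groups (log2 0.09, adjusted p 0.543). TIMM17B (chromosome X, 48893447 to 48898143) overlaps the gene PQBP1, whose footprints rose (log2 0.53, adjusted p 0.00893). Whether counting used strand is unknown here, so reads of the overlap may have gone to either gene. Other overlapping genes were called too. ABR overlaps TIMM22 and rose (log2 0.48, adjusted p 0.00367). DNAJC2 overlaps PMPCB and KIAA0586 overlaps TIMM9, and both fell (log2 -0.54 and -0.60, adjusted p 0.00271 and 0.00131). TIMM22, PMPCB and TIMM9 leaned the same way as these neighbours without passing. Other overlapping genes, which did not pass, leaned against the import gene. These were PSMC2 over PMPCB (log2 0.06), NKAPD1 over TIMM8B (-0.24) and CORO7-PAM16 over PAM16 (0.37). THBS3, over MTX1, leaned with it (0.08) and did not pass. The part of shared reads was not tested.

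TIMM50, the complex's receptor for presequences, had 129 and 107 CPM in WT and 147, 137 and 132 CPM in MUT. The groups were apart but the test was not passed (log2 0.24, adjusted p 0.0978); it was passed with library size only (0.0298) and upper-quartile scaling (0.0498), and the log2 fold change was 0.11 without WT replicate 2. TIMM23, the channel's core, stood at -0.06 (SE 0.103) with 192 and 163 CPM in WT and 154, 169 and 184 CPM in MUT. Its near-identical copy TIMM23B stood at -0.28 (SE 0.269) on 33 to 54 counts per library, and reads of these copies may have been split between them. TIMM21, which links the complex to the respiratory chain, stood at -0.06.

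Of the 4 genes chosen by symbol in the motor that pulls proteins into the matrix, 1 was higher and 3 did not pass. The motor genes HSPA9 and DNAJC19 lie outside the symbol rule and are given below. TIMM44 (chromosome 19, 7926718 to 7943666), which anchors HSPA9 at the channel exit, had 54.4 and 56.6 CPM in WT and 69, 81.4 and 72.9 CPM in MUT. It rose 1.34-fold with no overlap (log2 0.42, SE 0.127, adjusted p 0.018). The call ended without WT replicate 1 (0.0997), WT replicate 2 (0.0985) or MUT replicate 2 (0.0726) and with DESeq2 (0.0757). GRPEL1 and GRPEL2, the exchange factors of HSPA9, stood at -0.19 and -0.22 (adjusted p 0.15 and 0.112), with all MUT libraries below all WT libraries in both. PAM16, which holds the J-protein in check, stood at -0.09 with overlapping groups.

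Neither subunit of the processing peptidase passed. PMPCA had 78.4 and 109 CPM in WT and 109, 112 and 101 CPM in MUT, where WT replicate 1 alone stood apart (log2 0.17, SE 0.121). PMPCB, the catalytic subunit, had 98.4 and 111 CPM in WT and 93.5, 91.9 and 85.7 CPM in MUT (log2 -0.22, SE 0.108, adjusted p 0.138). OXA1L, which inserts proteins made inside mitochondria into the inner membrane, had 251 and 214 CPM in WT and 224, 231 and 226 CPM in MUT. Its MUT libraries all lay within the WT range (log2 -0.03, SE 0.0959). TIMMDC1, the complex I assembly factor, fell 1.22-fold, from 168 and 158 CPM to 140, 125 and 136 CPM (log2 -0.28, SE 0.0971, adjusted p 0.0372). Leaving out any 1 of the 5 libraries ended that call, with adjusted p from 0.051 to 0.156, as did 6 of the other 10 alternatives.

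**Figure D2:**
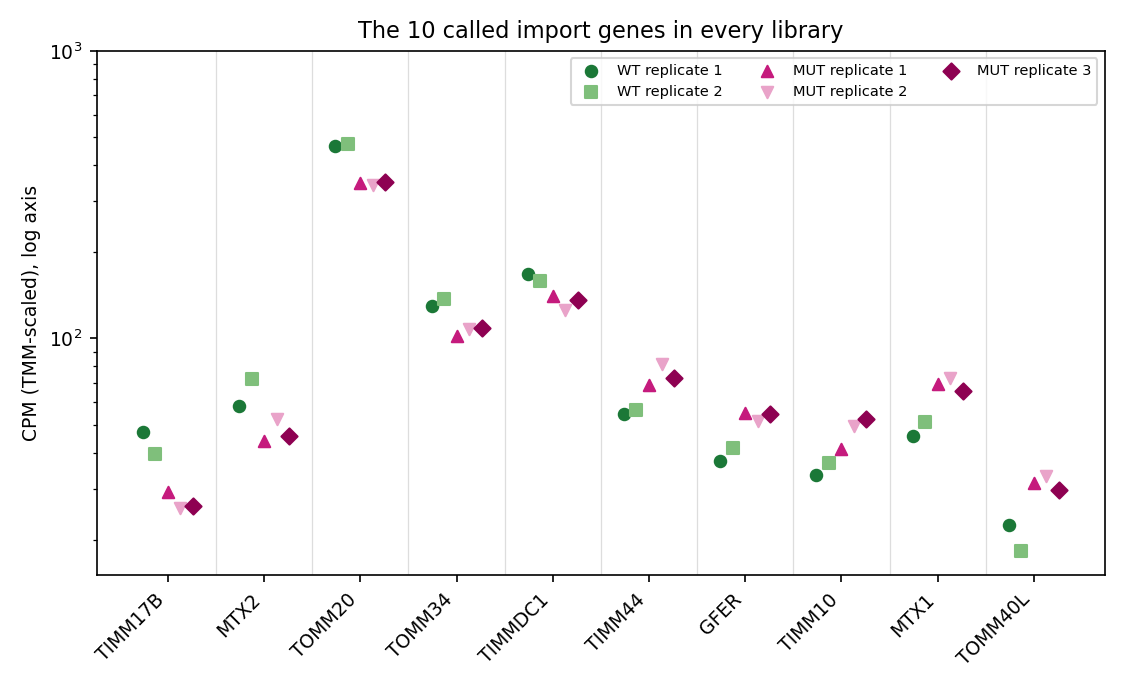
TMM-scaled CPM, on a log axis, of the 10 called import genes in each of the 5 libraries. Symbols mark libraries, green for WT and magenta for MUT; in each gene the WT and MUT libraries do not overlap, as in TOMM20 with 467 and 474 CPM against 341 to 350 CPM.

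Related genes and partner subunits were set against each other within libraries, where scaling cancels. The log2 count ratio of MTX1 to MTX2 was -0.35 and -0.49 in WT and 0.66, 0.47 and 0.51 in MUT, so the order of the counts turned over. It differed by 0.97 between the groups, a 1.95-fold shift. The TIMM17A to TIMM17B ratio went from 2.02 and 2.18 in WT to 2.76, 2.86 and 2.97 in MUT, a shift of 0.76. PMPCA to PMPCB, subunits of a heterodimer, shifted by 0.42, with -0.33 and -0.03 in WT and 0.23, 0.28 and 0.23 in MUT. TOMM40 to TOMM40L shifted by -0.34, with 1.70 and 2.12 in WT and 1.62, 1.39 and 1.70 in MUT; its highest MUT and lowest WT libraries nearly met. Leaving out WT replicate 1 made that shift -0.55, and leaving out WT replicate 2 made it -0.13.

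Each of these 4 pairs had p = 0.1 in an exact, two-sided permutation test, the smallest that 2 against 3 libraries allow, and 0.15 after Benjamini-Hochberg adjustment over the 6 pairs. TIMM8A to TIMM8B shifted by -0.13 and GRPEL1 to GRPEL2 by 0.03, both with overlapping groups and exact permutation p of 0.7 and 0.9. Without WT replicate 1 the GRPEL1 to GRPEL2 shift was -0.04, and without MUT replicate 2 it was also -0.04. The TIMM8A to TIMM8B shift ranged from -0.40 to 0.13 when single WT libraries were left out. Without WT replicate 1 the PMPCA to PMPCB shift was 0.27.

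**Figure D3:**
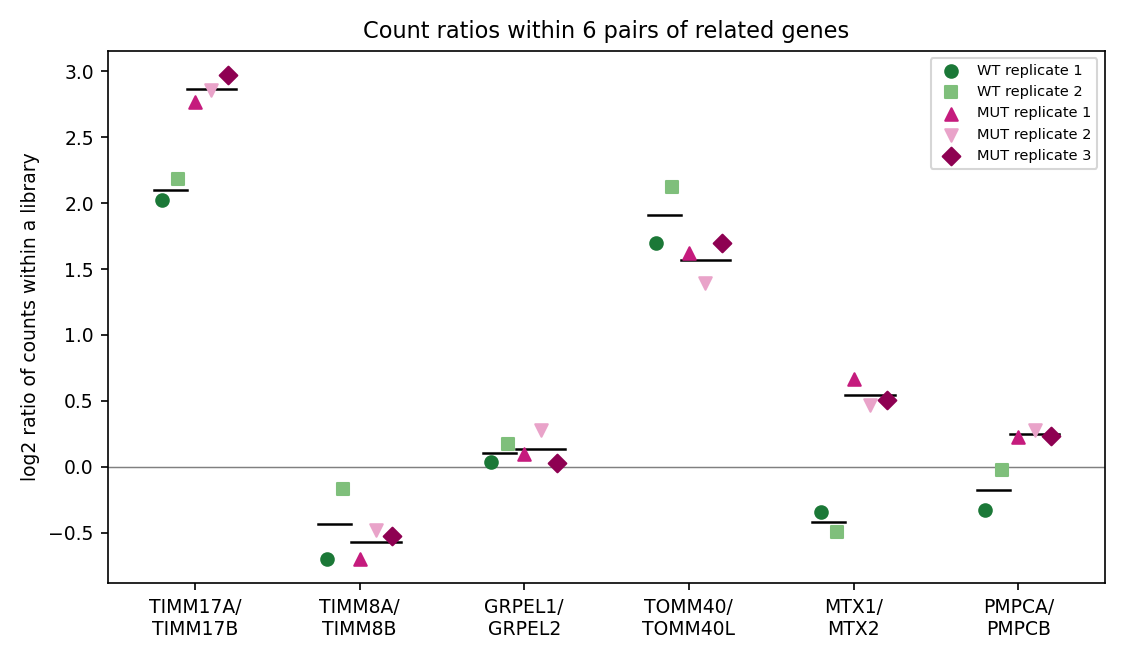
Log2 ratio of raw counts within each library for 6 pairs of related import genes or partner subunits. Symbols mark the 5 libraries and black lines the group means; MTX1/MTX2 lies below 0 in both WT libraries (mean -0.42) and above 0 in all MUT libraries (mean 0.55).

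The import genes' changes differed with their position in the genome. The 5 import genes on chromosome 19 (TIMM13, TIMM29, TIMM44, TIMM50 and TOMM40) all had log2 fold changes above 0, and 1 of them, TIMM44, was called. The 846 tested genes of that chromosome had a median of 0.20, and 16.3% of them were higher and 5.79% lower in MUT. Not every chromosome was alike: the 295 tested genes of chromosome 22 had a median of 0.17, with 15.6% higher and 2.03% lower, yet neither of its import genes (TOMM22 and SAMM50) was above 0. On chromosome 20, where the median was 0.07, the only import gene, TOMM34, fell. Gene density, counted as tested genes (itself included) with midpoints within 500 kb, gave a like picture in part. Genes were put into 4 density classes. Of 15 import genes in the 2 sparsest classes (up to 8 genes), 1 had a log2 fold change above 0, and the 3 that were called were lower. Over all tested genes 19.3% and 16.5% were lower in those classes and 6.03% and 6.72% higher, so the count of lower import genes is near that background. In the densest class (16 to 42 genes) 8 of 12 were above 0, 3 were called higher and 1, TIMM17B, was lower, where over all tested genes 17.8% were higher and 5.06% lower. Of all 11991 tested genes 6031 had a log2 fold change above 0. That count was not made within single chromosomes or density classes, so the import genes' counts above 0 lack a like background.

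All tested genes moved with density as well. Their median log2 fold change was -0.10, -0.07, 0.04 and 0.18 in the 4 classes from sparse to dense, beside -0.08, -0.22, 0.07 and 0.26 for the import genes in them. Across genes, which are not independent replicates and share libraries, log2 fold change correlated with log2 density at Pearson's r = 0.56 over 37 import genes and at 0.20 over 11857 genes. Spearman's rho was 0.59 and 0.26. With the trend of density and gene span taken out in each library, 1 import gene was higher (TOMM40L, adjusted p 0.0356) and 4 were lower (TIMM17B, TOMM20, TOMM34 and MTX2, adjusted p 0.000631, 0.003, 0.00673 and 0.0481). GFER, TIMM44, MTX1, TIMM10 and TIMMDC1 were not called in that fit, with log2 fold changes of 0.23, 0.22, 0.34, 0.39 and -0.26 and adjusted p of 0.258, 0.244, 0.0713, 0.0818 and 0.063. The pair ratios above were not corrected for this trend, and its part in them was not tested. In that fit PMPCA and PMPCB stood at -0.01 and -0.19, and MTX1 and MTX2 at 0.34 and -0.38. TIMM17A and TIMM17B stood at 0.06 and -0.83, and TOMM40 and TOMM40L at 0.12 and 0.56.

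**Figure D4:**
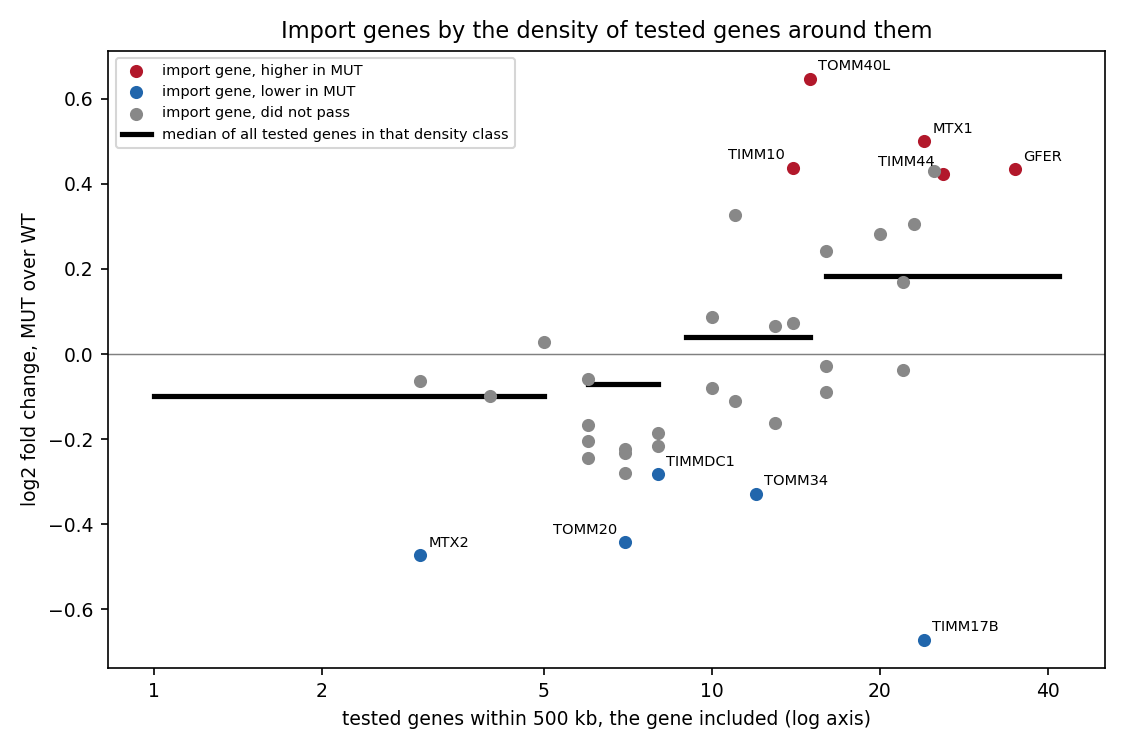
Log2 fold change, MUT over WT, of the 37 tested import genes against the number of tested genes within 500 kb on a log axis. Red and blue points are the called genes, and black bars the medians of all tested genes in 4 density classes (-0.10, -0.07, 0.04 and 0.18); TIMM17B, with 24 genes around it, lies lowest of all.

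Other genes that act with the import machinery moved both ways too. Of 46 genes of import, protein folding, proteolysis and cristae shape, all of them tested, 13 were lower and 5 higher, with a median log2 fold change of -0.11. Over all tested genes 12.9% were lower and 10.0% higher. The matrix chaperonin that folds imported proteins fell in both subunits: HSPD1 had 666 and 750 CPM in WT and 527, 552 and 489 CPM in MUT, and HSPE1 257 and 262 against 204, 188 and 171 CPM. The groups did not overlap in either gene (log2 -0.44 and -0.47, adjusted p 0.00221 and 0.00109).

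VDAC1, the main outer-membrane pore for metabolites, had 378 and 324 CPM in WT and 278, 240 and 243 CPM in MUT (log2 -0.46, adjusted p 0.00159). OPA1, the inner-membrane fusion protein, had 178 and 190 CPM in WT and 130, 139 and 134 CPM in MUT (log2 -0.45, adjusted p 0.00133). PITRM1, which degrades the cleaved presequences, rose from 116 and 121 CPM to 171, 179 and 177 CPM (log2 0.56, adjusted p 0.000263). These genes and the chaperonin subunits kept their calls in each alternative fit that left out a library.

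DNAJC11, a partner of the SAM and cristae complexes, rose (log2 0.50, adjusted p 0.00224), as did LETM1, an ion exchanger of the inner membrane (0.59, 0.00258), and BCS1L, the chaperone of complex III (0.60, 0.0032). DNAJC11 and LETM1 lost their calls without WT replicate 1 (0.0533 and 0.087), and BCS1L without WT replicate 2 (0.0836). LETM1 also lost it when libraries were thinned to the smallest (0.0604). HSPA9, the motor chaperone, was named after its value was seen and stood at -0.06 (means of 363 CPM in WT and 349 CPM in MUT, adjusted p 0.714). DNAJC19, a J-protein of the motor, was also named after its value was seen. It fell from 29 and 24.8 CPM in WT to 13.4, 15.5 and 19.5 CPM in MUT (log2 -0.71, adjusted p 0.0164). That call ended with DESeq2 (0.0638), with the density and span trend removed (0.0514) and without MUT replicate 1 (0.0754). It also ended without WT replicate 1 (log2 -0.62) and without WT replicate 2 (log2 -0.83). The number of these 46 genes that were lower was 4 without MUT replicate 1, 5 without WT replicate 2 and 6 without WT replicate 1 or MUT replicate 3. It was 4 with DESeq2, 6 with library size only and 7 with upper-quartile scaling. Those that were higher numbered 2 without WT replicate 1, 4 without WT replicate 2, 6 with library size only and 5 in the other fits just named. So falls did not outnumber rises with DESeq2, with library size only or without MUT replicate 1.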

How the data were processed

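Ribosome-protected fragments of 2 WT and 3 MUT libraries were analysed; RNA-seq libraries were not analysed here. Per the labels' protocols, extracts were digested with MNase, which cuts preferentially next to A and T, and single 80S ribosomes were taken from a sucrose gradient before small-RNA library preparation. The deposited values are raw counts per gene, not normalized by the authors. The build hg38 and the tools STAR 2.5.2b, cutadapt 4.6, DESeq2 1.42.0 and FastQC 0.12.1 are named, per the submitters' processing notes. The sources used here give neither the counter nor its annotation, strand setting or treatment of shared reads. Of the 38 import genes 15 have annotated pseudogene copies and 11 overlap another coding gene, so their values carry that uncertainty.

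The table's columns were matched to samples by the codes in its header. Counts were fitted in R 4.3.3 with edgeR 4.0.16 (filterByExpr with a minimum count of 10 and total of 15, TMM scaling, quasi-likelihood F test over all 5 libraries, 3 residual degrees of freedom) and adjusted by Benjamini-Hochberg over all tested genes, with a threshold of 0.05. CPM are TMM-scaled; SE were computed from the F statistic. Within-library ratios added 0.5 counts and were tested by exact permutation of the libraries, two-sided, with 10 possible splits.

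Alternatives were RLE, upper-quartile and library-size scaling, DESeq2 1.42.0, limma-voom (limma 3.58.1), no filter, a strict filter (30 counts in 2 libraries, mean 10 CPM), thinning to the smallest library, each library left out, and the replicate number as a block. Removing the trend of gene span and density was added after the data were seen, in place of a protein-length trend that could not be fitted. The genes, lists and alternatives were chosen with earlier results of these data known. All members were named. Of the other 46 genes, the 8 called with the lowest p were named, and HSPA9 and DNAJC19 after their values were seen.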

Additional observations from a re-analysis of the deposited data

How the results depend on the processing

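Of 555 values of single import genes over the alternatives, 470 kept their direction and side of the threshold, 41 lost a call, 15 gained 1 and 29 changed sign, all of these in genes that were not called. Import genes called higher numbered 9 with library size only and also with upper-quartile scaling, 1 with DESeq2 and with the density and span trend removed, and 1 to 4 when a library was left out; those lower numbered 3 with library size only, 2 with DESeq2 and 2 to 5 without a library. Role groups with a call fell from 6 of 9 to 3 with DESeq2 and with the trend removed, and to 2 to 5 without a library. The import genes' median log2 fold change was -0.0177 with upper-quartile scaling, 0.00845 with library size only, -0.098 with the replicate block and -0.118 to -0.0265 without a library. These scalings move the median of all genes by less than 0.1, to 0.048 and 0.075. The cause of these changes was not tested. Over all genes, DESeq2 called 609 higher and 948 lower, and leaving out a library gave 509 to 1089 and 732 to 1339; calls for a rise made up 43.8% of calls, but 62.8% with library size only and 56.3% with upper-quartile scaling. The other 46 genes had 7 lower with upper-quartile scaling, 6 with library size only and 4 with DESeq2, 4 to 11 without a library, and 2 to 5 higher without a library. Without a library the TIMM8A/TIMM8B shift ran from -0.402 to 0.132 and PMPCA/PMPCB from 0.273 to 0.574; the members' share difference of -0.00575 points ran from -0.0116 to 8.47e-05.

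Signs turned as follows. With upper-quartile scaling OXA1L was 0.0175 and TOMM22 0.00637. With library size only OXA1L was 0.0467, TIMM21 0.00845, TIMM23 0.0154 and TOMM22 0.0382. In thinned libraries OXA1L was 0.00899, TIMM8A 0.026 and TIMM8B -0.0312. With the trend removed PMPCA was -0.0103, SAMM50 0.0089, TIMM21 0.0691 and TIMM23 0.0113. Leaving out single libraries gave ranges for CHCHD4 (-0.11 to 0.22), OXA1L (-0.141 to 0.0806), PMPCA (-0.0332 to 0.458), SAMM50 (-0.171 to 0.0248), TIMM10B (-0.0204 to 0.139), TIMM21 (-0.131 to 0.0318), TIMM23 (-0.172 to 0.0476), TIMM8A (-0.142 to 0.00278), TIMM8B (-0.133 to 0.259) and TOMM22 (-0.297 to 0.245).

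The labels do not say that a replicate number marks a shared batch. Deviations from the group means correlated at 0.0797 for replicate 1 and 0.1465 for replicate 2, so the numbers were not taken to pair the samples. With the replicate block, which leaves 1 residual degree of freedom, 12 import genes were called in place of 10: TIMM10 was lost (adjusted p 0.0608) and GRPEL2 (0.0191), MTX3 (0.00375) and TIMM50 (0.0175) were gained. CHCHD4 was -0.0166 and SAMM50 0.0226. The protein-length trend was not run, since no protein table was given. Without 1 library, 20 import genes moved by over 1.5 times in log2 fold change or changed sign, of which MTX2 was the only called one. With 1 WT library left, that library is assumed to vary like the MUT ones. Depth limits TIMM29 and TIMM23B most, with 24 and 33 counts in WT replicate 1.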
